A study of Mus musculus with 23 samples.

Results

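Rab GTPases are the small GTP-binding switches that give each membrane compartment of a cell its identity. The genes described here are those of the mouse whose symbol is Rab, then 1 or 2 digits, and at most 1 lower-case letter and 1 further digit. Of the 32285 genes counted, 59 have such a symbol. Levels are given in CPM, the UMIs (unique molecular identifiers, 1 per captured RNA molecule) of a gene per 1000000 UMIs of the cells concerned, and 47 of the 59 reached 10 CPM in at least 1 of 10 cell classes. Just inside that line lay Rab40b, with 15.3 CPM in its highest class, and just outside lay Rab19, with 8.61. The other 11 members below it were Rab3b, Rab3c, Rab9b, Rab15, Rab17, Rab25, Rab26, Rab37, Rab38, Rab42 and Rab44.

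A Rab protein in its GTP-bound form sits on a membrane and recruits effectors, such as tethers, motor adaptors and lipid kinases. Exchange factors switch it on, GTPase activating proteins switch it off, and escort and GDI proteins carry it between membranes. A receptor taken up from the cell surface passes through early endosomes marked by Rab5. From there it returns to the surface through fast (Rab4, Rab35) or slow (Rab11) recycling endosomes, or goes on to late endosomes and lysosomes marked by Rab7. In brain capillaries the transferrin receptor travels this way, and transport of a bound antibody across the endothelial cell depends on which of these routes it takes.

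The study sorted mouse brain cells by how much of an injected fluorescent antibody they held. An ATV, or antibody transport vehicle, also binds a receptor of the capillary wall. The one called ATV-TfR binds the transferrin receptor and was injected into TfR mu/hu KI mice, whose transferrin receptor gene is a mouse/human knock-in. The other, ATV-CD98hc, recognises CD98hc, the heavy chain of an amino acid transporter, and was given to CD98hc mu/hu KI mice. Control IgG binds neither and was given to C57BL/6J mice, so treatment and genotype cannot be told apart. The animals were 3.3 months old by the sample labels and 12 weeks by the series text, and received a single intravenous dose of 45 mg/kg coupled to AF647, and the brain (without olfactory bulbs, cerebellum, pons and medulla) was taken 24 hours later. Actinomycin D and Anisomycin, which stop transcription and translation, were present during dissociation. Live cells were sorted into a negative, low, medium and high bin of AF647 signal, with gates set on the positive ATV-TfR cells. Each treatment had 2 pools of cells, every pool from a female and a male animal, and 1 library was made for each bin of a pool. The control IgG negative bin was represented by replicate 2 alone, which made 23 libraries in 12 groups. The p-values below therefore rest on the spread between libraries of a group, which come from different pools. Libraries of 1 pool in different bins share animals, but the main fit has no block and treats them as independent.

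The libraries held 599 to 21518 barcodes and 1861238 to 90307818 UMIs. After filtering, 234024 cells stayed, with a median of 2178 to 4873 UMIs per cell in a library. Of these cells, 13460 (5.75%) carried a barcode sequence that also occurred in another library. The cells formed 27 clusters, and markers named 21 of them, which gave 97811 endothelial-like, 92043 astrocyte-like, 11456 microglia-like, 6648 pericyte-like, 6297 oligodendrocyte-like, 4480 choroid plexus epithelial-like, 3245 border macrophage-like, 2921 fibroblast-like, 2244 smooth muscle-like and 878 ependymal-like cells. The other 6 clusters (6001 cells, 2.56%) stayed unnamed and enter no level below. The border macrophage-like cluster was led by H2-Eb1, H2-Aa and Cd74, and H2-Aa is also among the markers fixed for monocytes or dendritic cells.

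Promoters of 6 members are shown as examples of genes present in every class and of genes carried by few. Rab11a, Rab14 and Rab10 were present in every class, with 41.8, 163 and 74.9 CPM in their lowest. Rab39, Rab32 and Rab33a were carried by 1 or 2 classes. Each sequence is the 250 bases before the transcription start, from RefSeq on GRCm38.p6, written 5′ to 3′ on the gene's own strand, with every CpG dinucleotide in capitals.
Rab11a (chr9:64737757-64738006, minus strand): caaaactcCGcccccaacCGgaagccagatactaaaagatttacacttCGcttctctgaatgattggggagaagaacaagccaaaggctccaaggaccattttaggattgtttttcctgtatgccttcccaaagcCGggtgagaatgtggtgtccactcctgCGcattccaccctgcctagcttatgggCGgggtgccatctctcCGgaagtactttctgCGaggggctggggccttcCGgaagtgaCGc
Rab14 (chr2:35201121-35201370, minus strand): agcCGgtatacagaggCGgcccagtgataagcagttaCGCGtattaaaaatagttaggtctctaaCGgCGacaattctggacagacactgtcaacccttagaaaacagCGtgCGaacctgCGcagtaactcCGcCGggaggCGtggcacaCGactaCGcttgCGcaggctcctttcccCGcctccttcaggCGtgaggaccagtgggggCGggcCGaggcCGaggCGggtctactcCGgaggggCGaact
Rab10 (chr12:3309970-3310219, minus strand): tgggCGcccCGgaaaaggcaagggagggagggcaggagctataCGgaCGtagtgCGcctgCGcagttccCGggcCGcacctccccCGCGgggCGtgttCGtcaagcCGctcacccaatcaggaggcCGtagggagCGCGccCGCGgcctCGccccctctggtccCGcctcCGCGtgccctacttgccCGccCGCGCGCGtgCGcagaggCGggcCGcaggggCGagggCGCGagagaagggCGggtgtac
Rab39 (chr9:53706233-53706482, minus strand): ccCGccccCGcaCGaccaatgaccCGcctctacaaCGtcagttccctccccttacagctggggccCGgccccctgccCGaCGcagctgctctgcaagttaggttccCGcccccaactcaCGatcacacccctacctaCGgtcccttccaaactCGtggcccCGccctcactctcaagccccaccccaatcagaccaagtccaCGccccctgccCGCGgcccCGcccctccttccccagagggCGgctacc
Rab32 (chr10:10558208-10558457, minus strand): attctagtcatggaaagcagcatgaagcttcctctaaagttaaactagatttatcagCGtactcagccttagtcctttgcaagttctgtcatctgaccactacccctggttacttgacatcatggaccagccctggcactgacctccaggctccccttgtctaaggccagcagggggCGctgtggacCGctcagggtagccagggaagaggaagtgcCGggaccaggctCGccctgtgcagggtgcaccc
Rab33a (chrX:48519035-48519284, plus strand): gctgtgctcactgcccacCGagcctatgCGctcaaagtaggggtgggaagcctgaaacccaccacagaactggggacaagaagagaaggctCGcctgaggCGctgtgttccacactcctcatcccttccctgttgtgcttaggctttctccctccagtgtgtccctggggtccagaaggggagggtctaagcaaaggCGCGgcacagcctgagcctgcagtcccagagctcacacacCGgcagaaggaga

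RefSeq promoters were matched for 48 of the 59 members. Rab10, which carries vesicles from recycling endosomes and the Golgi to the cell surface, had 34 CpGs in its window, and Rab14 had 23. Rab11a, also present in every class, had only 10. Rab32, a GTPase of lysosome-related organelles, had 5, and Rab33a, a Golgi GTPase whose family also binds the autophagy machinery, had 7. Rab39, which acts on phagosomes and autophagy, was class-led and still had 18 CpGs and 5 copies of GGGCGG, the GC box, counted on both strands. The 40 reported members with an entry had 49 windows, since 7 of them have over 1 listed start, and in what follows a gene takes the CpG count of its richest window and a motif found in any of its windows. By that rule the median was 20 CpGs (5 to 42), against a median of 6 over 27025 genes whose windows were counted in the same way. The 40 members were picked by their level, while the 27025 genes passed no such filter, here and in the motif shares below. Members under 10 CPM with an entry ran from 3 CpGs (Rab17 and Rab42) to 27 (Rab15). The 11 class-led members (defined below) had a median of 14 (5 to 21), and the other 29 had a median of 23 (7 to 42). With the poorest window of each gene those medians were 9 and 21, and 5 over all genes. At least 1 GGGCGG on either strand was found in 31 of the 40 genes (77.5%), against 35.4% of all genes, in 8 of the 11 class-led genes (72.7%) and in 23 of the 29 others (79.3%). In the poorest window alone these shares were 45.5% and 72.4%, with 31% over all genes. CCAAT on either strand occurred in 22 of the 40 genes, a share of 55%, against 37.5% of all genes, and in the poorest window alone in 52.5% and 34.7%. These are letter matches only.

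Rab levels across the cell classes are a description with no test, because the classes were drawn from the same cells. The Rab genes themselves were left out of the genes used for clustering. Summed over all 59 members, the level ran from 2407 CPM in choroid plexus epithelial-like to 3668 in oligodendrocyte-like cells. The roles were distributed differently. Members of the recycling routes summed to 901 CPM in endothelial-like cells, the highest class, followed by 747 in pericyte-like cells, and to 397 in astrocyte-like cells, the lowest. In the negative bins alone endothelial-like cells were again highest for these members (833), but microglia-like cells (736) came before pericyte-like cells (677). Early endosome members summed to 807 in oligodendrocyte-like and 425 in ependymal-like cells. Members of late endosomes and lysosomes were highest in fibroblast-like cells (662) and lowest in oligodendrocyte-like cells (411). Members of exocytosis and transport to the plasma membrane summed to 594 in border macrophage-like and 218 in choroid plexus epithelial-like cells, while in the negative bins alone microglia-like cells were highest for them (587, against 496 in border macrophage-like cells). Of the 47 reported members, 15 had their highest level in oligodendrocyte-like cells, 8 in endothelial-like cells and 2 in astrocyte-like cells. In 17 members every pool of the highest class lay above every pool of the second class. The highest class was picked from the same values, and this count was not made over all genes.

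**Figure D1:**
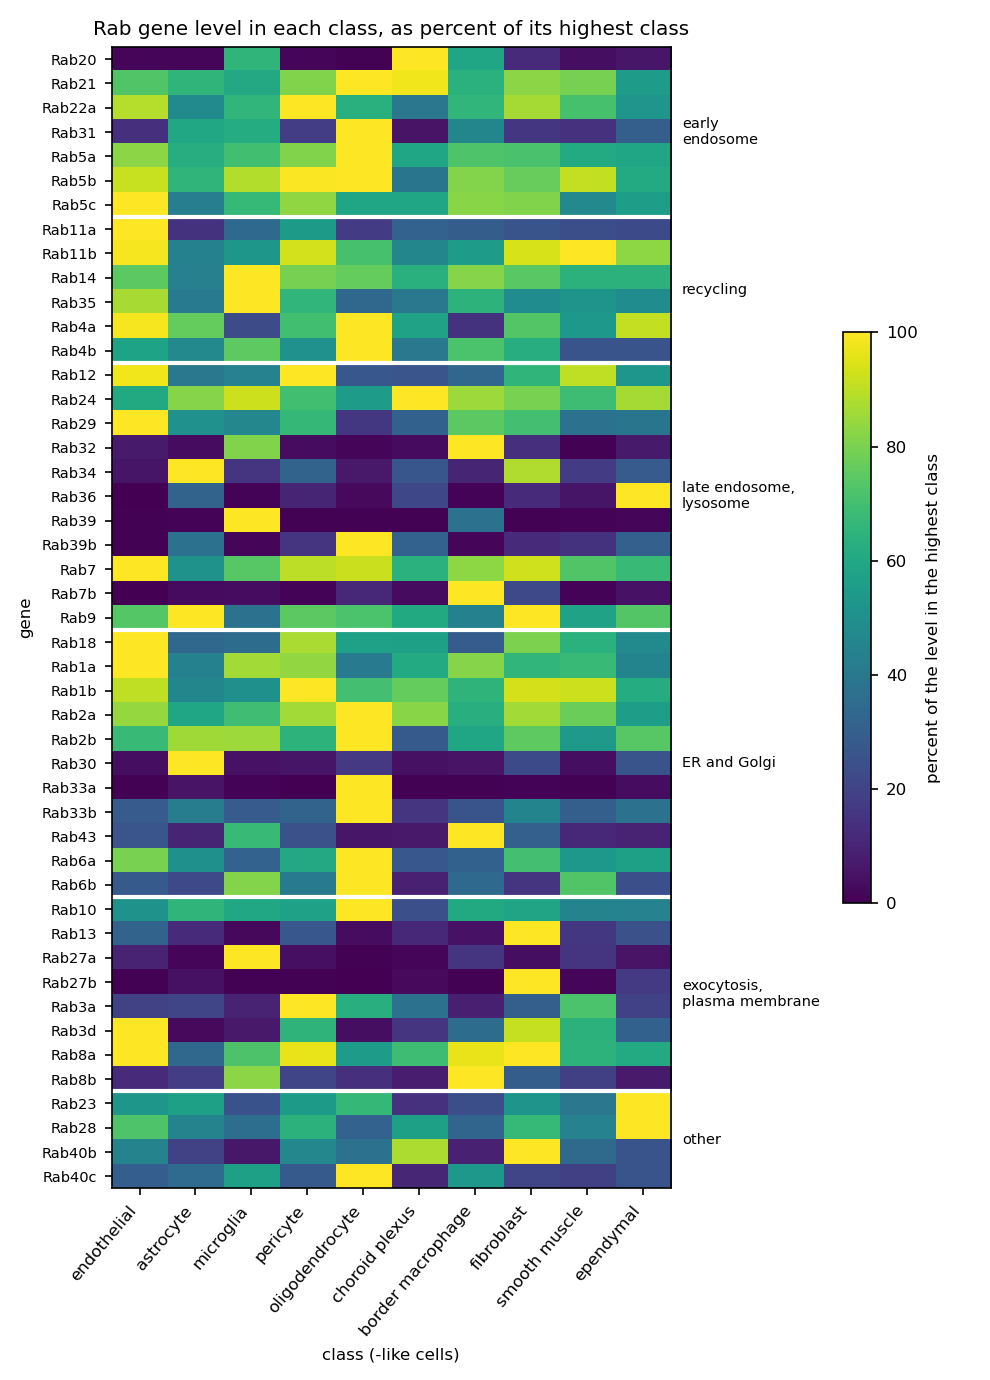
Level of the 47 reported Rab genes (rows, grouped by role) in the 10 cell classes (columns), as a heat map in which each gene is scaled to its own highest class, over all libraries together. Rab33a and Rab30 stand out in single columns and Rab39 in the columns of both immune classes. The Rab5 genes and Rab11b are spread over all classes, while Rab11a is highest in endothelial-like cells.

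Class-led members are the 15 whose highest class reached at least 4 times the median over the 10 classes. Rab30, a Golgi GTPase, was carried by astrocyte-like cells, at 189.6 CPM (pools 185.1 to 196.8, 4.5 SD, n = 5 pools). The next class, ependymal-like cells, had 49.5, and the median class 10.03. In the negative libraries of ATV-TfR, fibroblast-like cells had a mean of 78.5 CPM and ependymal-like cells of 31.05. Rab33a was carried by oligodendrocyte-like cells, at 76.1 CPM (pools 64.7 to 90.2), where the second class, astrocyte-like cells, had 4.1. Rab39b, a neuronal relative of Rab39 that is mutated in X-linked intellectual disability, was highest in oligodendrocyte-like cells too, at 38.7 CPM, with 14.4 in astrocyte-like cells. Rab31, which acts between the Golgi and early endosomes, reached 321.5 in oligodendrocyte-like cells and 199 in microglia-like cells, and was lowest, at 17.3, in choroid plexus epithelial-like cells.

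Several Rab genes were led by an immune class, some high in both immune classes and some, Rab27a and Rab7b, mainly in 1. Rab39 had 99.9 CPM in microglia-like cells and 37.3 in border macrophage-like cells, and 1.7 in the third class. Rab27a, known for the secretion of lysosome-related organelles, had 51.8 in microglia-like cells (pools 45.5 to 58.3) and 7.87 in border macrophage-like cells. Rab7b, which returns late endosome cargo to the Golgi, showed the opposite order among the immune classes, with 72.0 CPM in border macrophage-like cells (pools 53.1 to 89.4) and 2.27 in microglia-like cells. Its second class was fibroblast-like cells, at 15.8. Rab8b (304 and 251), Rab43 (165 and 111) and Rab32 (37.7 and 30.5) had their highest level in border macrophage-like and their second highest in microglia-like cells. For Rab39, Rab32, Rab8b and Rab43 the pools of these 2 classes overlapped. The microglia-like cells of control IgG replicate 1 were few, and that pool gave the outlying microglia-like points of Rab20 (223 CPM), Rab39 (38.8), Rab7b (48.5) and Rab32 (0).

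Of the remaining class-led members, Rab36, linked to the placement of lysosomes and Golgi membranes, was led by ependymal-like cells at 99.4 CPM, with 31.8 in astrocyte-like cells. Rab20, which acts on phagosomes, was led by choroid plexus epithelial-like cells at 67.7 CPM, and microglia-like cells followed at 44.2. Its choroid plexus pools (51.5 to 81.2) overlapped the microglia-like pools (36.4 to 223). Rab34, which acts in lysosome positioning and cilium assembly, had 158 CPM in astrocyte-like and 139 in fibroblast-like cells, and was lowest, at 8.98, in endothelial-like cells. Rab13, a GTPase of tight junctions, had 151.5 CPM in fibroblast-like cells (pools 112 to 221) and 48.2 in endothelial-like cells. Rab27b, which acts in regulated secretion, had 28.3 in fibroblast-like cells (pools 10.8 to 40.7) and 4.83 in ependymal-like cells.

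The fibroblast-like class joins 2 clusters with different Rab genes. Cluster 26 (1697 cells, led by Coch, Igfbp4 and Moxd1) had 207 CPM of Rab13 and 44.2 of Rab27b, while cluster 18 (1224 cells, led by Slc6a13, Igfbp6 and Spp1) had 56.9 and 1.4. Rab30 showed the reverse order, with 14.2 CPM in cluster 26 and 90.8 in cluster 18. Rab34 was at 157 CPM in cluster 26 and 109 in cluster 18.

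**Figure D2:**
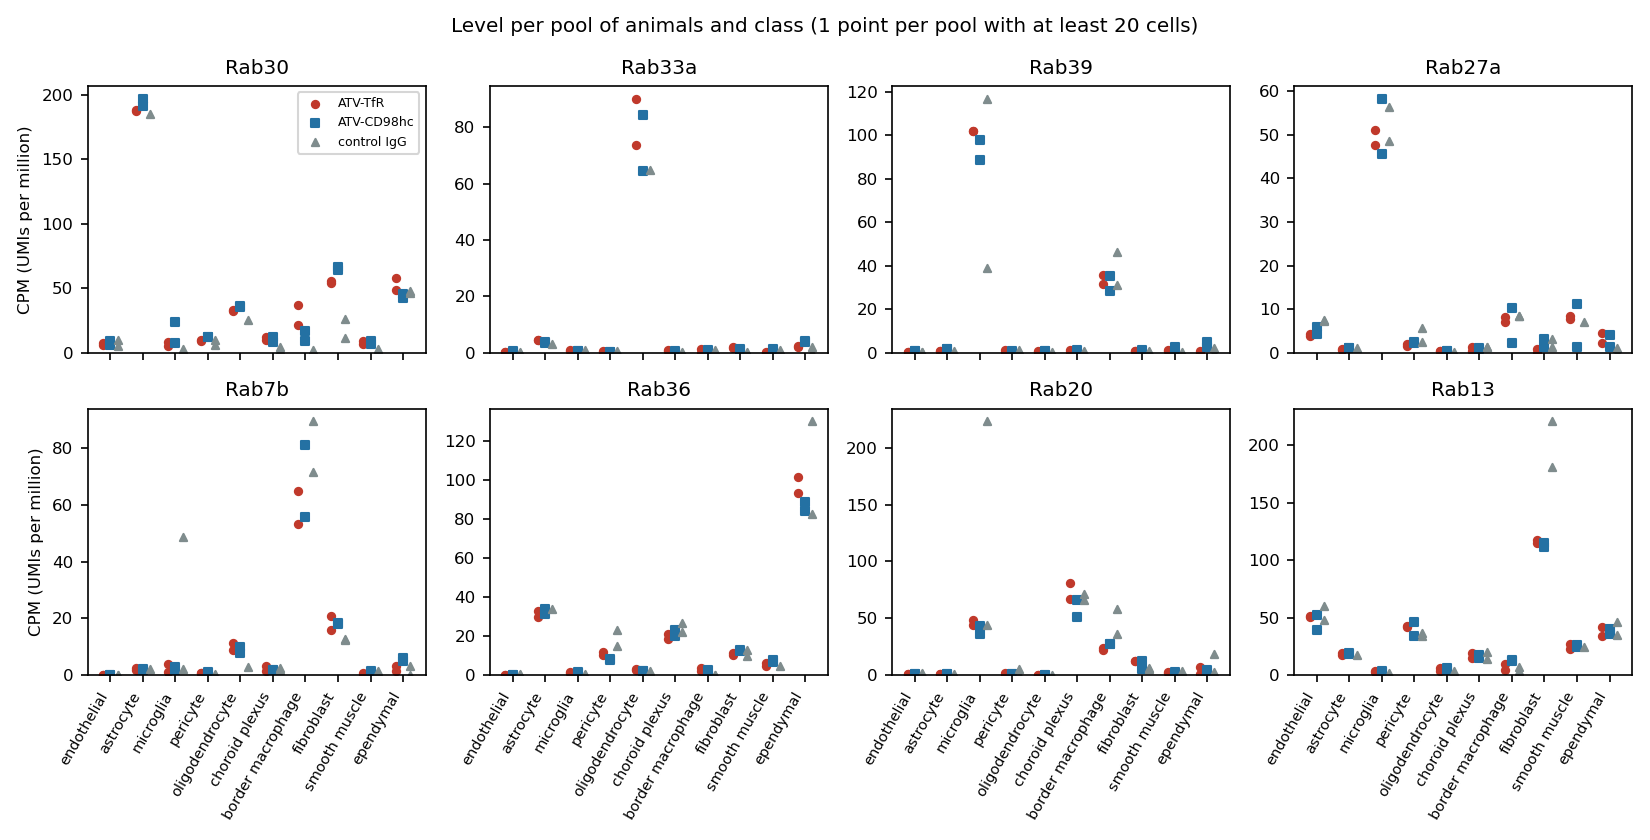
Levels of 8 class-led Rab genes (CPM, vertical axis) in the 10 cell classes (horizontal axis), with 1 point per pool. The points of Rab30 lie between 185.1 and 196.8 in astrocyte-like cells and do not reach them in any other class, while the pools of Rab20 in choroid plexus epithelial-like and microglia-like cells overlap.

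The highest class was mostly the same within the negative bins alone, in cells without antibody signal. These cells are part of the sums above (for example, 5267 of the 6297 oligodendrocyte-like cells), so that agreement was partly fixed in advance. In the negative bins, 39 of the 47 members had the same highest class, and so did 13 of the 15 class-led members. The 8 others were Rab7, Rab21, Rab8a, Rab32, Rab8b, Rab3d, Rab9 and Rab40b. Rab7 was there highest in oligodendrocyte-like cells (173, against 163 in endothelial-like cells), and Rab21 in choroid plexus epithelial-like cells (174, against 165 in oligodendrocyte-like cells). Rab32 and Rab8b, the exceptions among the class-led members, were both higher in microglia-like cells (31.2 and 273 CPM) than in border macrophage-like cells (28.1 and 237), of which the negative bins held 159. Rab27b had 3.19 CPM in fibroblast-like and 3.15 in ependymal-like cells there, and was the member that no longer reached 10 CPM. In these bins 46 members reached 10 CPM. The counts of 39 and 13 compare the highest class alone. They do not show whether a class-led member still met that definition in the negative bins.

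The 16 members on the route of an internalised receptor had UMIs in the sums of every class. RNA of other cells was also counted in the classes, such as 10 astrocyte markers at 419 to 547 CPM in the microglia-like cells of the ATV-TfR negative bin, so a low level is not read as expression, as for Rab13 at 3.10 CPM in microglia-like cells. Endothelial-like cells held the highest level of Rab11a, the GTPase of slow recycling endosomes, at 283 CPM (15.6 SD over 6 pools). Pericyte-like cells followed at 154 and astrocyte-like cells were lowest at 41.8. Within the negative bins the endothelial level of Rab11a was 259, and choroid plexus epithelial-like (96.9), microglia-like (95.9) and pericyte-like cells (88.5) followed. Rab5c of early endosomes was also highest in endothelial-like cells, at 139.5 CPM, with 116 in pericyte-like cells, and so was Rab7 of late endosomes, at 184, with 171 in fibroblast-like cells. Their gap to the next class was about the size of the spread between pools (SD 10.0 and 21.1 for Rab5c, 12.5 and 11.5 for Rab7). Rab8a, which carries vesicles to the cell surface, had 67.7 in endothelial-like and 67.6 in fibroblast-like cells. For Rab8a the pools of endothelial-like, pericyte-like (65.5) and fibroblast-like cells differed by less than their spread (SD 8.7, 4.1 and 10.5).

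The paralogues did not share 1 order. Rab11b was highest in smooth muscle-like cells (174.4), with 171.9 in endothelial-like cells, a gap within the spread of the pools (SD 17.7 and 13.2). Rab5a (102.9), Rab5b (82.9), Rab21 (159.6), Rab10 (306) and Rab4b (114) were highest in oligodendrocyte-like cells. Rab4a of the fast recycling route had 48.7 CPM in oligodendrocyte-like and 48.0 in endothelial-like cells, against 7.1 in border macrophage-like cells. Rab14, which carries cargo between the Golgi and endosomes, and Rab35 of fast recycling were highest in microglia-like cells, at 376 and 58.7, with 281 and 51.1 in endothelial-like cells. Rab22a, an early endosome GTPase, was highest in pericyte-like cells at 90.3, followed by 80.1 in endothelial-like cells.

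Among the 4 large endothelial-like clusters the levels of most route members were close. Rab4a ranged most, from 33.0 CPM in cluster 19 to 61.1 in cluster 21, and Rab31 went from 31.2 in cluster 19 to 55.5 in cluster 20. Rab13 was highest in cluster 19 (55.4) and lowest in cluster 20 (40.5). Rab11a ran from 260 to 303. Cluster 19 had the highest sum of 6 arterial markers (954 CPM) and cluster 21 the highest sums of 5 capillary (4279) and 6 venous (738) markers.

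The brightest endothelial-like cells of ATV-TfR had more RNA of 5 Rab genes than those without signal: Rab29, Rab4a, Rab18, Rab35 and Rab28. The cells compared lay in different clusters, as given below. The comparison asks which Rab genes differ between endothelial-like cells with the most AF647 signal and those with none. Of 53 members tested in this class, 7 passed (edgeR's quasi-likelihood test, Benjamini-Hochberg adjusted p below 0.05 over 15533 genes), 5 higher and 2 lower. Over all genes 9.81% were called, 2.74% higher and 7.08% lower, and 12 members had an unadjusted p below 0.05. Another scaling changes the direction of that split: with DESeq2's size factors in edgeR, 4 members passed (1 higher, Rab29, and 3 lower), and DESeq2 itself called 6 (1 higher, Rab4a, and 5 lower). Those factors moved the median log2 change over 8003 genes by -0.135 here and by -0.179 for ATV-CD98hc. The shares of all genes called in these other fits are not given, so their counts are not set against the shares above.

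Rab29, a GTPase of the Golgi and lysosomes that recruits the kinase LRRK2, had 13.1 and 5.61 CPM in the negative libraries and 27.2 and 25.02 in the high libraries of ATV-TfR. The groups did not overlap, and the log2 change was 1.52 (SE 0.40, adjusted p = 0.014 by edgeR). The negative libraries held 891570 UMIs of endothelial-like cells together, against 127357635 in the high libraries. Low levels in the negative bin, as for Rab29, Rab4a and Rab35, therefore rest on few UMIs. The endothelial-like cells of the control IgG negative library, in mice given no receptor-binding antibody, had 25.04 CPM of Rab29, close to the high bin of ATV-TfR.

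Rab4a had 14.95 and 22.4 CPM in the negative and 43.2 and 45.3 in the high libraries of ATV-TfR, a log2 change of 1.44 (SE 0.41, adjusted p = 0.025 by edgeR). The control IgG negative library lay between them at 36.2. Rab35, the other fast recycling gene called, went from 41.1 and 22.4 to 54.8 and 53.5 CPM, a log2 change of 0.84 (SE 0.26, adjusted p = 0.037). In the control IgG negative library Rab35 had 49.2. Rab4a had 19.4 and 12.2 CPM in the low and 31.0 and 25.7 in the medium libraries of ATV-TfR, and its low bin was no higher than its negative bin (14.95 and 22.4). Rab35, at 52.7 and 63.8 in the low bin, was already at its level of the high bin.

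Rab18, which sits on the endoplasmic reticulum and lipid droplets, had 136 and 168 CPM in the negative libraries of ATV-TfR and 207 and 219 in the high libraries. Its log2 change was 0.64 (SE 0.19, adjusted p = 0.027 by edgeR). Rab28, known from the cilia of photoreceptors, had 95.3 and 58.9 in the negative and 114 and 112 in the high libraries, a log2 change of 0.65 (SE 0.20, adjusted p = 0.039 by edgeR). For both genes the control IgG negative library, at 190.5 and 109 CPM, lay between the bins.

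The 2 members called lower, Rab15 and Rab27b, rest on single UMIs. Rab15, of early and recycling endosomes, had 4 UMIs of 891570 in the negative libraries and 6 of 127357635 in the high libraries of ATV-TfR, a rate 95.2 times higher in the negative bin (95% exact interval 19.8 to 402, counting error only). Rab27b had 3 and 5 UMIs, a ratio of 85.7 (13.3 to 441). Both were under 10 CPM in this class in every library.

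In ATV-CD98hc, 1 of 53 members passed, against 5.23% of all genes (1.62% higher and 3.61% lower), and 6 had an unadjusted p below 0.05. Rab29 had 7.12 and 5.73 CPM in the negative libraries, and 22.4 and 27.2 in the high libraries (log2 change 2.08, SE 0.59, adjusted p = 0.041 by edgeR). The negative value rests on 3 UMIs, against 2215 in the high bin, so that the negative rate was 0.264 of the high rate (95% exact interval 0.0544 to 0.773). DESeq2 called no member here, with 4 at an unadjusted p below 0.05. Rab4a had 42.7 and 11.5 CPM in the negative and 46.9 and 65.2 in the high libraries. Its negative libraries differed from each other more than the nearer one differed from the high bin, and its log2 change of 1.05 had an adjusted p of 0.22 by edgeR.

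**Figure D3:**
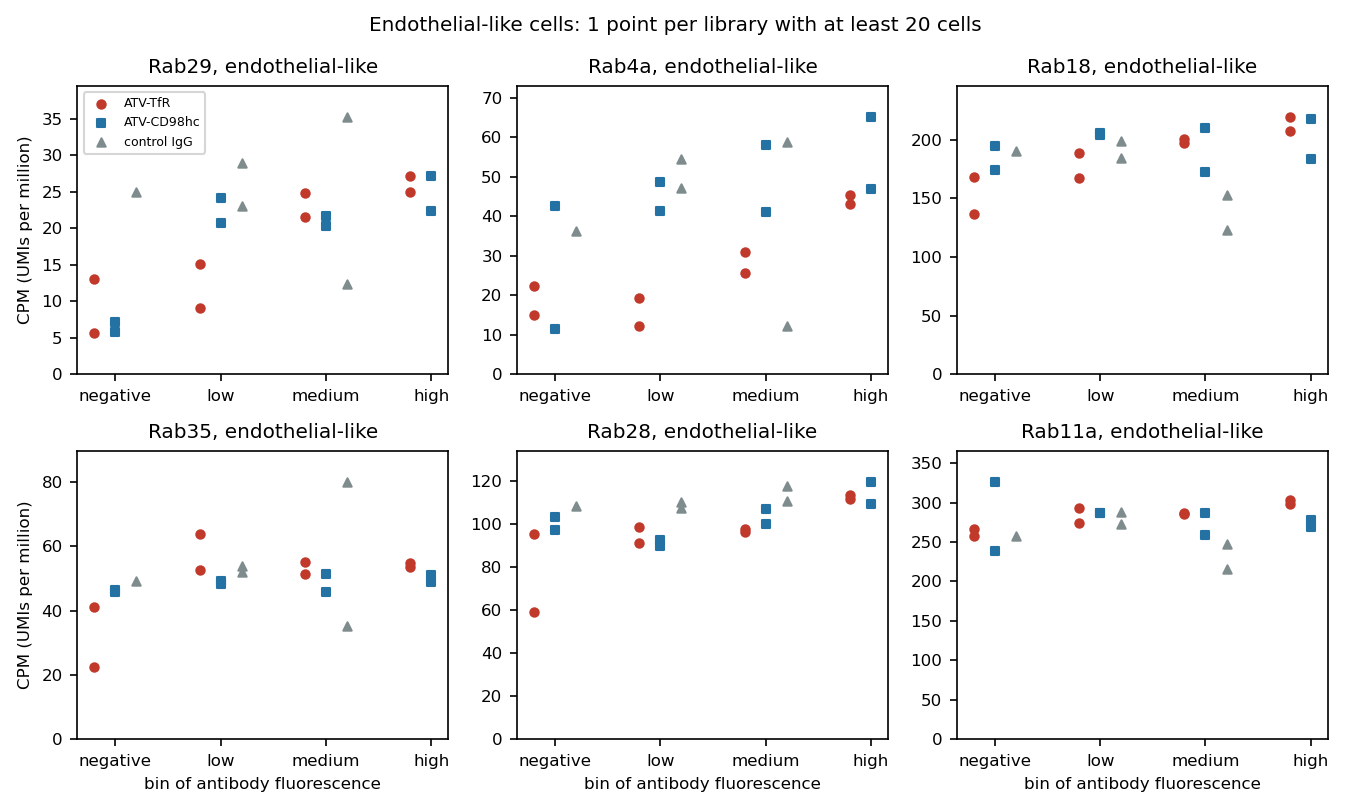
Levels of Rab29, Rab4a, Rab18, Rab35, Rab28 and Rab11a in endothelial-like cells (CPM, vertical axis) by AF647 bin (horizontal axis) and treatment, with 1 point per library of at least 20 such cells. The negative libraries of both ATVs lie low for Rab29 (5.61 to 13.1), while the control IgG negative library lies at 25.04.

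Most genes of the receptor route did not pass the test. Of the 16, 2 were called in ATV-TfR (Rab4a and Rab35, against 9.81% of all genes) and 0 in ATV-CD98hc (5.23% of all genes). In ATV-CD98hc edgeR gave 5 of the 16 an unadjusted p below 0.05, and the share of all genes at that level is not given. With DESeq2's size factors in edgeR, 1 of the 53 members had such a p there, against 6 in the main fit. The log2 changes of the 16 ran from -0.53 to 1.44 (median 0.19) in ATV-TfR and from -0.38 to 1.05 (median 0.41) in ATV-CD98hc. With this scaling 15 of 16 were above 0 in each. Over all genes tested, at any level, the median was 0.07 in ATV-TfR and 0.19 in ATV-CD98hc, and 54.8% and 60.5% were above 0. These signs depend on the scaling, since DESeq2's size factors moved the median log2 change over 8003 genes by -0.135 and -0.179. The counts above 0 with those factors are not given. Rab11a had 258 and 267 CPM in the negative and 303 and 299 in the high libraries of ATV-TfR, with an adjusted p of 0.26 by edgeR. In ATV-CD98hc its negative libraries (239 and 327) enclosed the high ones (269 and 278). Rab5a (log2 change 0.06 in ATV-TfR, 95% interval -0.31 to 0.44) and Rab14 (0.01, interval -0.32 to 0.33) had intervals on both sides of 0.

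Rab13 was the only route gene with a log2 change below 0 in this fit, in both antibodies. It had 91.6 and 70.1 CPM in the negative and 51.6 and 51.5 in the high libraries of ATV-TfR, without overlap, but its log2 change of -0.53 had an adjusted p of 0.18 by edgeR. In ATV-CD98hc Rab13 had 74.8 and 74.5 in the negative and 43.8 and 58.1 in the high libraries (log2 change -0.38, adjusted p = 0.56 by edgeR).

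Other RNA differed between the same libraries. The negative bins of the ATVs held few endothelial-like cells (125 and 84 for ATV-TfR, 80 and 58 for ATV-CD98hc), against 8975 to 16627 in the high bins and 2512 in the control IgG negative library. The 6 arterial markers summed to 1465 to 1897 CPM in the negative and 231 to 255 in the high libraries of ATV-TfR, and the 5 capillary markers to 1380 to 1889 and 3638 to 3663, with every marker of both lists detected in each library. The 10 astrocyte markers summed to 619 to 976 and 95.04 to 96.8, the 8 neuron markers to 486 to 491 and 74.9 to 90.1, and the 12 endothelial markers to 23114 to 23487 and 31599 to 32006. In the control IgG negative library the arterial sum was 413 and the capillary sum 3003. The 4 erythroid markers summed to 19813 in ATV-CD98hc negative replicate 1 and to 0 in replicate 2. The endothelial-like cells of the ATV-TfR negative bin were 51.2% from cluster 19 and 31.6% from cluster 17, a cluster of 267 cells with 3338 CPM of Plvap, a gene of fenestrated and leaky vessels. In the ATV-TfR high bin those clusters held 22.6% and 0% of the class. In ATV-CD98hc cluster 17 held 10.1% in the negative and 0.0485% in the high bin, and in the control IgG negative library 0.717%. Over all libraries cluster 17 had 9.80 CPM of Rab29, 7.84 of Rab4a, 143 of Rab18, 36.2 of Rab35 and 93.1 of Rab28, levels between those of the ATV-TfR negative libraries for Rab29, Rab18, Rab35 and Rab28 and below both for Rab4a. The part of these differences in the Rab values was not tested as a whole. Within cluster 19, which held 193 of the 347 endothelial-like cells of the ATV negative bins, the log2 changes of ATV-TfR were 1.51 for Rab29, 1.47 for Rab4a, 0.58 for Rab18, 1.06 for Rab35 and 0.77 for Rab28, and none of the 5 passed (adjusted p from 0.061 to 0.23 by edgeR).

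The calls rest on both ATV-TfR pools. Without ATV-TfR replicate 1 or without replicate 2, 0 of 51 and 0 of 53 members tested passed in ATV-TfR, with 5 and 4 at an unadjusted p below 0.05 by edgeR, although the 5 named genes kept their direction (Rab29 at 2.46 and 1.32, Rab4a at 1.32 and 1.79, on the log2 scale). The ATV-CD98hc call of Rab29 did not pass without either pool of that treatment (adjusted p = 0.35 without replicate 1 and 0.41 without replicate 2, by edgeR), nor without the erythroid-rich negative library (0.36).

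**Figure D4:**
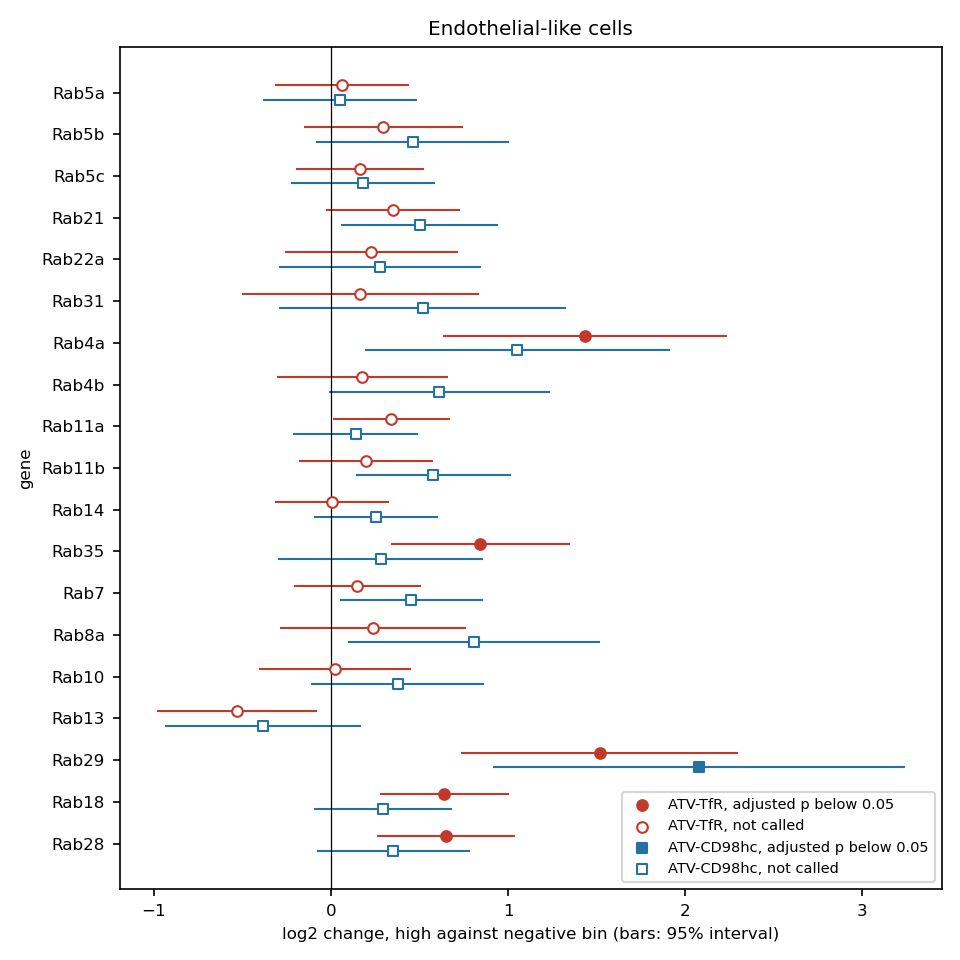
Log2 change of high against negative bin in endothelial-like cells (horizontal axis) with 95% intervals from the SE, for the 16 route genes and for Rab29, Rab18 and Rab28 (vertical axis), in ATV-TfR and ATV-CD98hc. The intervals of Rab29 lie above 0 in both treatments, and those of Rab5a and Rab14 cross it.

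Between the 2 antibodies no Rab gene passed the test of the difference in endothelial-like cells when all libraries were used. For the difference of the high against negative changes, ATV-TfR minus ATV-CD98hc, edgeR called 0 of 53 members (0.0193% of all genes), with 0 at an unadjusted p below 0.05, and DESeq2 called 0. For Rab29 the difference was -0.56 on the log2 scale, with a 95% interval from -2.22 to 1.10, and for Rab35 0.56 (-0.23 to 1.35). Between the high bins, where cells were many, edgeR again called 0 of 53 members (0.135% of all genes), with 1 at an unadjusted p below 0.05, and DESeq2 called 0. Without ATV-CD98hc replicate 2, edgeR did call members between the high bins, but 1 library was then left in that group. Its spread was borrowed from the other groups, so those calls are not read as a result. With all libraries, the 16 route genes differed between the high bins by -0.38 to 0.13. Rab29 differed by 0.06 (interval -0.29 to 0.40), Rab35 by 0.10 (-0.22 to 0.42) and Rab4a by -0.36 (-0.78 to 0.07). These comparisons are also comparisons of the 2 knock-in lines.

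The regulators and effectors of Rab proteins form a list of 132 genes, of which 129 were tested in endothelial-like cells. In ATV-TfR, 6 were called higher and 4 lower in the high bin, and in ATV-CD98hc 3 higher and 4 lower (edgeR, adjusted p below 0.05). These shares of the list are near those of all genes, 9.81% and 5.23%. The 8 genes for prenylation and delivery had 0 calls in both. Of the 34 GTPase activating proteins, ATV-TfR had 3 higher and 1 lower (2.74% and 7.08% of all genes) and ATV-CD98hc had 0 called, and of 56 effectors tested, 3 and 2 were called in ATV-TfR and 3 and 4 in ATV-CD98hc. The median log2 change of the list was 0.04 in ATV-TfR and 0.14 in ATV-CD98hc. For the difference between the antibodies and for their high bins, edgeR called 0 of the 129, so no regulator was shown to differ between the antibodies.

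The effectors called in both antibodies were Rab11fip1, Fyco1, Ehbp1l1 and Bicd1. Rab11fip1, which binds Rab11 on recycling endosomes, had 54.2 and 50.5 CPM in the negative and 148 and 146 in the high libraries of ATV-TfR (log2 change 1.63, adjusted p = 7.15e-05 by edgeR). In ATV-CD98hc Rab11fip1 had 74.8 and 34.4 in the negative and 182 and 137 in the high libraries (1.61, adjusted p = 0.000746), and the control IgG negative library had 169. Fyco1, which links Rab7 to kinesin, had 95.3 and 92.6 in the negative and 169 and 167 in the high libraries of ATV-TfR (0.98, adjusted p = 0.00222), with 204 in the control IgG negative library.

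Ehbp1l1, an effector of Rab8 and Rab10, was lower in the high bin. It had 71.0 and 70.2 CPM in the negative and 37.0 and 39.3 in the high libraries of ATV-TfR (log2 change -0.75, adjusted p = 0.0174 by edgeR), and 41.7 in the control IgG negative library. Bicd1, a dynein adaptor that binds Rab6, had 20.6 and 5.61 in the negative and 1.56 and 1.03 in the high libraries of ATV-TfR, from 13 UMIs in the negative bin, and 4.59 in the control IgG negative library. For Rab11fip1, Fyco1 and Ehbp1l1 the control IgG negative library was nearer to the high than to the negative libraries of ATV-TfR, and for Bicd1 it lay between them.

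Astrocyte-like cells, which made up most of the low-bin and medium-bin cells of ATV-TfR, had 0 Rab genes called in those bins by edgeR. In ATV-TfR, edgeR called 0 of 54 members in the low bin against the negative bin (1.36% of all genes), with 4 at an unadjusted p below 0.05, and DESeq2 called 1. In the medium bin edgeR called 0 of 54 (4.63% of all genes), with 6 at an unadjusted p below 0.05, and DESeq2 called 1. The shares of all genes called by DESeq2 are not given, so its counts are not set against the edgeR shares. The 16 route genes changed by -0.05 to 0.33 and by -0.09 to 0.37 on the log2 scale. In the low bin of ATV-CD98hc, 1 of 54 was called, lower, against 2.86% of all genes (1.23% lower). This was Rab15, with 1.06 and 1.28 CPM in the negative and 0.23 and 0.24 in the low libraries. Its negative rate was 4.76 times the low rate (95% exact interval 2.57 to 8.85, from 25 and 22 UMIs), and in ATV-TfR the negative libraries had 0.71 and 1.65 against 0.56 and 0.41 in the low libraries. Without either ATV-CD98hc pool the adjusted p of Rab15 was 0.18 by edgeR.

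Between the negative bins of the 2 antibodies, which compare treatment and genotype without antibody signal, edgeR called 0 of 54 members in astrocyte-like cells (0.785% of all genes, 3 at an unadjusted p below 0.05). In microglia-like cells it called 0 of 43 (0% of 11956 genes, 1 at an unadjusted p below 0.05). DESeq2 called 0 in both. In border macrophage-like cells, which filled the high bin of control IgG, the high and low bins differed in 0 of 36 members (1.81% of all genes, 2 at an unadjusted p below 0.05), and DESeq2 called 0. With the pool as a block, edgeR called 1 member lower in the medium bin of astrocyte-like cells of ATV-TfR and 1 higher in border macrophage-like cells. The shares of all genes called with the block are not given.

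In the other classes and bins each comparison was made against the negative bin of the same treatment. Over 55 such comparisons 2399 tests of members gave 60 calls higher and 76 lower (5.67%), against 8.7% over all genes, and 36 comparisons had at least 1 member called. Of these, 14 comparisons and 23 calls are of control IgG, whose negative arm is 1 library, and without them 113 of 1796 member tests were called (6.29%), against 9.73% over all genes. The genes given next are route genes and class-led genes whose values were chosen after they were seen.

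In the high bin of ATV-TfR, astrocyte-like cells had 7 members higher and 2 lower of 54 (17.6% of all genes, 10.5% higher and 7.06% lower). Rab5c rose from 55.3 and 58.9 CPM in the negative to 80.8 and 93.5 in the high libraries (log2 change 0.71, adjusted p = 0.000334 by edgeR). Rab30, the gene that astrocyte-like cells led, fell from 198 and 214 to 125 and 135 (log2 change -0.55, adjusted p = 0.0012), and Rab34 fell from 180 and 164 to 113 and 107 (-0.53, adjusted p = 0.0013). Rab30 had 176 to 201 CPM in the 4 ATV-TfR libraries of the low and medium bins. The 12 endothelial markers summed to 10.7 to 11.8 CPM in the negative and 586 to 925 in the high libraries, all 12 detected, and the 10 astrocyte markers to 17638 to 17702 and 28124 to 28390. Their part in the result was not tested. Rab30 and Rab34 were no longer called without ATV-TfR replicate 1 or 2 (adjusted p from 0.097 to 0.13 by edgeR), while Rab5c was. In the medium bin of ATV-CD98hc, 0 members were higher and 8 lower of 54 (15.4% of all genes, 8.14% higher and 7.26% lower), namely Rab14, Rab4b, Rab34, Rab24, Rab26, Rab33a, Rab39b and Rab9. Rab34 had 163 and 179 CPM in the negative and 126 and 126 in the medium libraries there (log2 change -0.39, adjusted p = 0.00727 by edgeR), and Rab14 had 163 and 176 against 136 and 130.4 (-0.30, adjusted p = 0.020). Without ATV-CD98hc replicate 2 neither passed (adjusted p = 0.11 and 0.15), Rab14 did not pass without either ATV-TfR replicate (0.11 each), and Rab34 did not with at most 5% mitochondrial UMIs (0.092). The endothelial markers summed to 8.69 to 12.6 in the negative and 559 to 845 in the medium libraries of ATV-CD98hc. In the high bin of ATV-CD98hc, 1 member was higher and 3 lower of 54 (7.81% of all genes, 3.94% higher and 3.87% lower), and Rab30 had 174 and 176 CPM against 212 and 176 in the negative bin.

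Outside astrocyte-like cells Rab30 was called higher than in the negative bin in 9 comparisons of 5 classes, and lower in fibroblast-like cells and in the low and medium bins of control IgG in choroid plexus epithelial-like cells. In smooth muscle-like cells of ATV-TfR it had 3.13 and 2.32 CPM in the negative and 30.4 and 60.4 in the low libraries (log2 change 3.83, adjusted p = 2.57e-06 by edgeR). In microglia-like cells of ATV-TfR Rab30 had 2.27 and 3.53 in the negative and 20.4 and 20.06 in the low libraries (2.89, adjusted p = 0.000472), and in oligodendrocyte-like cells 24.3 and 21.8 against 54.5 and 60.6 (1.24, adjusted p = 1.61e-05). The 10 astrocyte markers, all detected, summed in the same negative and low libraries to 138 to 262 and 1960 to 2850 CPM in smooth muscle-like, to 419 to 547 and 1727 to 1733 in microglia-like, and to 331 to 406 and 2192 to 2722 in oligodendrocyte-like cells. Their part in these values of Rab30, a gene led by astrocyte-like cells, was not tested. The call was lost in microglia-like cells without ATV-TfR replicate 1 (adjusted p = 0.14 by edgeR) and in oligodendrocyte-like cells without replicate 2 (0.065).

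Pericyte-like cells showed the largest change of Rab11a among these. In ATV-TfR it had 71.0 and 71.1 CPM in the negative and 202 and 187 in the high libraries (log2 change 1.50, adjusted p = 3.02e-06 by edgeR), and in ATV-CD98hc 66.0 and 90.1 against 184 and 181 (1.28, adjusted p = 0.000101). The low libraries lay between, at 92.2 and 118 in ATV-TfR and 138 and 145 in ATV-CD98hc. Rab34 went the other way, from 86.3 and 67.6 to 45.0 and 39.5 in ATV-TfR (log2 change -0.82, adjusted p = 0.0056 by edgeR). In all, 5 members were higher and 3 lower of 41 in ATV-TfR (23.1% of all genes, 12.1% higher and 11% lower), and 3 and 3 in ATV-CD98hc (20.4%, 10.8% and 9.59%). The 12 endothelial markers summed to 298 to 1196 CPM in the negative and 17219 to 17457 in the high libraries of ATV-TfR, and the 8 pericyte markers to 37337 to 40134 and 19411 to 19964, with every marker of both lists detected. Rab11a stayed called without either pool of its treatment, while Rab34 in ATV-TfR was lost without replicate 1 or 2 (adjusted p = 0.29 and 0.12 by edgeR). Rab11a and Rab34 had 283 and 8.98 CPM in endothelial-like cells, and the part of endothelial RNA in this result was not tested.

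Choroid plexus epithelial-like cells had many members lower in the high bin, 9 of 45 in ATV-TfR with 1 higher (23.6% of all genes called, 10.3% higher and 13.3% lower) and 15 of 45 in ATV-CD98hc with 0 higher (30.6% called, 12.2% higher and 18.5% lower). Rab14 had 249.2 and 248.9 CPM in the negative and 172.6 and 172.4 in the high libraries of ATV-TfR (log2 change -0.64, adjusted p = 0.0036 by edgeR), and 257 and 322 against 196 and 162 in ATV-CD98hc (-0.90, adjusted p = 6.03e-05). Rab7 fell from 122 and 119.6 to 65.1 and 75.1 in ATV-TfR (-0.89, adjusted p = 0.000526). Rab14 in ATV-TfR was lost without ATV-TfR replicate 1 or 2 (adjusted p = 0.077 and 0.15 by edgeR), and Rab7 without replicate 1 (0.059). In control IgG, whose negative arm is 1 library assumed to vary like the other groups, 7 of 45 members were lower in the medium bin (14.7% of all genes, 9% lower) and 2 in the high bin (9.06% of all genes, 5.3% lower), with 0 higher in both. Rab14 had 283 CPM in that negative and 185 and 212 in the medium libraries (log2 change -0.58, adjusted p = 0.031 by edgeR). The class joins 2 clusters whose shares differed between the bins. Cluster 25 held 19 of 272 such cells in the negative and 67 of 117 in the high bin of ATV-TfR, and 12 of 187 and 152 of 226 in ATV-CD98hc. In control IgG it held 6 of 144 in the negative, 169 of 370 in the medium and 44 of 104 in the high bin, where the 12 endothelial markers summed to 533, 116 to 131 and 115 to 153 CPM. Over all libraries cluster 25 had 156 CPM of Rab14 and 76.0 of Rab7, and cluster 13 had 271 and 134. Within cluster 13 alone, over the cells of a bin together, Rab14 had 277 CPM in the negative and 251 in the high bin of ATV-TfR and 308 and 258 in ATV-CD98hc, and Rab7 had 140 and 91.7 (234 and 49 UMIs) in ATV-TfR and 131 and 136 in ATV-CD98hc, with no test. The 12 endothelial markers summed to 91.1 to 91.6 in the negative and 1545 to 3293 in the high libraries of ATV-TfR, where all 12 were detected, against 5 in the negative library with fewest. Their part in the values was not tested.

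In fibroblast-like cells Rab13 was called higher and Rab30 lower in the low and the medium bin of control IgG and of ATV-TfR and in the high bin of control IgG. In ATV-CD98hc Rab30 was called lower in 2 bins, the medium and the high, and Rab13 in none. The 2 clusters of the class differed in the same direction. Of the control IgG cells of this class, cluster 26 made up 4 of 78 in the negative bin and 550 of 651 in the low bin. In ATV-TfR it made up 16 of 291 and 152 of 206, and in ATV-CD98hc 2 of 62 in the negative and 146 of 210 in the high bin, so that the bins compared held cells of different clusters. In the low bin of control IgG 3 members were higher and 1 lower of 45 (11.1% of all genes, 4.25% higher and 6.83% lower). Rab13 had 58.4 CPM in the negative library and 218 and 188 in the low libraries of control IgG (log2 change 1.86, adjusted p = 0.000557 by edgeR), and Rab30 had 139 and then 12.5 and 15.5 (-3.23, adjusted p = 1.68e-07). The negative arm of control IgG is 1 library, with 24 UMIs of Rab13, so that its spread is assumed to be that of the other groups in the fit. Within cluster 18 alone, over the control IgG cells of a bin together, Rab13 had 44.5 CPM in the negative and 48.5 in the low bin (17 and 23 UMIs), and Rab30 had 147 and 63.3 (56 and 30 UMIs). These values, like those within cluster 13 above, were computed after seeing the data and carry no test. In ATV-TfR, Rab13 had 58.3 and 84.0 in the negative and 157 and 139 in the low libraries (1.04, adjusted p = 0.00465 by edgeR), in a comparison with 3 members higher and 4 lower (13% of all genes, 8.12% higher and 4.92% lower). Markers of other cells moved with the bins in fibroblast-like libraries. From the negative to the low bin, the 10 astrocyte markers summed to 4114 and then 482 to 545 CPM in control IgG, but to 1652 to 2029 and then 2580 to 2593 in ATV-TfR, where Rab30 was lower too. The 8 pericyte markers summed to 4827 in the negative and 534 to 716 in the low bin of control IgG, and to 6476 to 7113 and then 451 to 732 in ATV-TfR. The 7 fibroblast markers, all detected, summed to 10796 and then 4838 to 5312 in control IgG, and to 14310 to 14866 and then 5296 to 6442 in ATV-TfR. In the high bin of ATV-CD98hc the astrocyte sum was 771 to 1108, against 2217 to 2734 in its negative bin. At least 8 of the 10 astrocyte and 7 of the 8 pericyte markers were detected in the libraries of the negative and low bins of control IgG and ATV-TfR. Their part in the result was not tested.

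**Figure D5:**
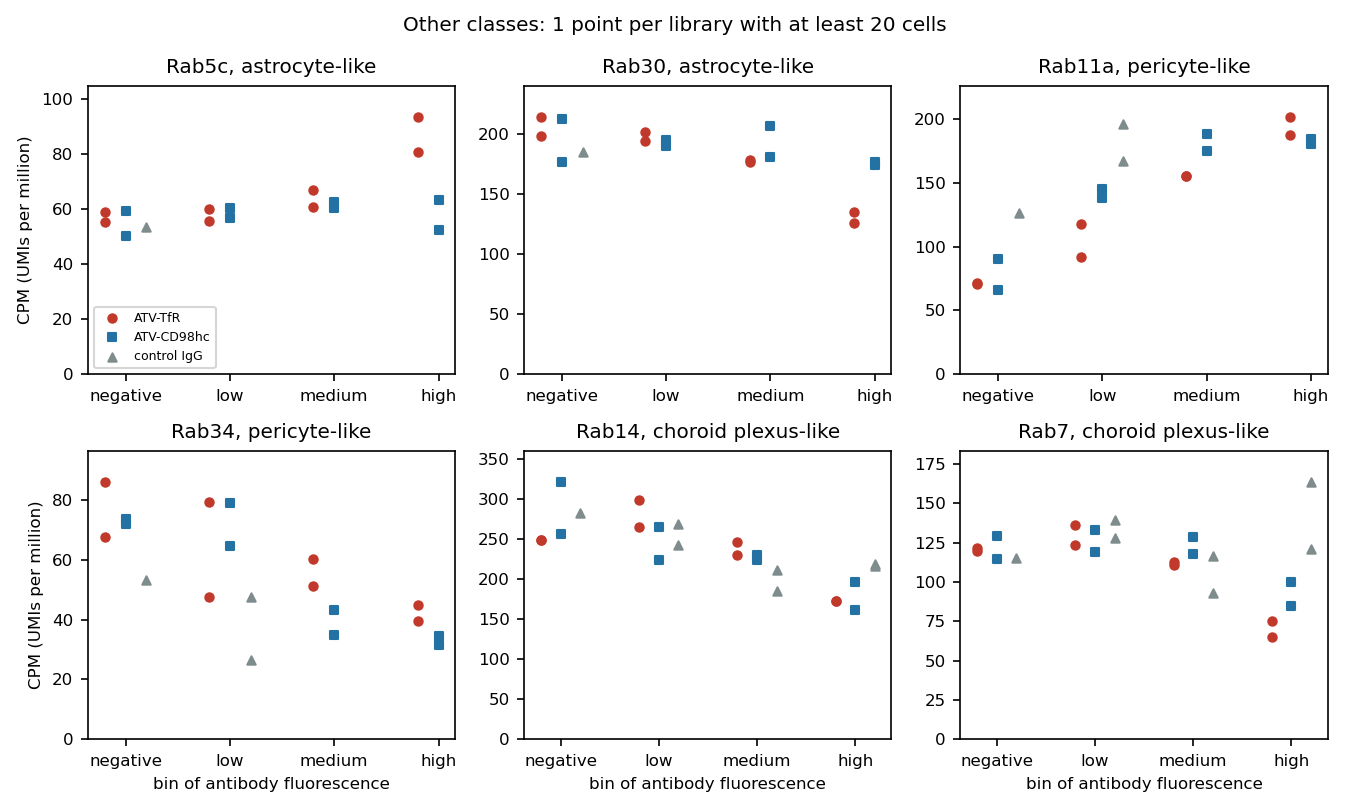
Levels (CPM, vertical axis) by AF647 bin (horizontal axis) and treatment of Rab5c and Rab30 in astrocyte-like, Rab11a and Rab34 in pericyte-like, and Rab14 and Rab7 in choroid plexus epithelial-like cells, with 1 point per library. The high libraries of ATV-TfR lie apart from the negative ones in all 6 panels, as for Rab11a in pericyte-like cells (187 and 202 against 71.0 and 71.1). The panels show genes already called in this comparison, so the separation follows from how they were picked.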

How the data were processed

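Single-cell RNA-seq of sorted mouse brain cells was deposited as 1 matrix of UMI counts that holds all libraries, made by the authors with Cell Ranger 7.1.0 on mm10, per the file headers and the submitters' processing notes, which also name Seurat. The other deposited columns are barcodes, gene names and library descriptions, with no measured value. Cells with at least 500 genes, 800 UMIs and at most 10% mitochondrial UMIs were kept (249715 of 265025 barcodes), and 15691 doublets were removed with Scrublet, in 8 libraries by percentile 94 of the score. Cells were clustered (scanpy 1.11.5, 2000 variable genes without Rab genes, 50 components, 15 neighbours, Leiden resolution 1) and clusters were named by marker lists.

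UMI counts were summed per library and class (at least 20 cells) and tested with edgeR 4.0.16 (quasi-likelihood, TMM, filterByExpr, all groups of a class in 1 fit, Benjamini-Hochberg over all genes). SE is the log2 change over the square root of F, which is approximate. Of the 59 members, 6 were not tested in endothelial-like cells. DESeq2 1.42.0 was an alternative, as were other scaling, filters, cells and left-out replicates. Exact intervals of UMI ratios are at 95% and cover counting error only. Libraries of 1 pool share animals, per the labels. Their deviations from the group means correlated across bins at 0.072 to 0.507 (ATV-TfR, 6 pairs of bins), 0.146 to 0.972 (ATV-CD98hc) and 0.147 (control IgG, 1 pair) over 7631 genes.

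Genes named by plan are the members called in a planned comparison, the 16 genes of the receptor route, the 15 class-led members, the members nearest to the 10 CPM line and the regulators called in both antibodies. Some other members are named besides, such as those called in the other classes and bins or under 10 CPM. The members and lists were chosen with earlier results of these data known. The tests were also run on simulated counts with independent libraries and the same spread for all genes. Shared pools and different cell mixes were not simulated, so that run does not show how well the p-values hold here.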

Additional observations from a re-analysis of the deposited data

How the results depend on the processing

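With 47 members at 10 CPM, 53 passed when any single group of a class counted, and 46 in the negative bins alone. In endothelial-like cells of ATV-TfR, 7 members were called. That count was 4 with RLE size factors, 2 with a stricter filter on low counts, 1 within cells of 1 cluster, and 0 to 8 when leaving out 1 replicate at a time. In ATV-CD98hc the 1 call became 0 with RLE size factors, DESeq2, the stricter filter, at most 5% mitochondrial UMIs and cells of 1 cluster, 0 to 1 without 1 replicate, and 0 without ATV-CD98hc negative replicate 1, an alternative chosen after seeing the data. Between the high bins, leaving out 1 replicate gave 0 to 3 calls. In astrocyte-like cells of ATV-TfR, the low bin had 1 call with DESeq2 and 1 with no filter, and the medium bin had 1 with DESeq2, 2 with no filter, 1 within 1 cluster and 0 to 2 without 1 replicate. In the low bin of ATV-CD98hc the call was lost with the stricter filter, at most 5% mitochondrial UMIs and 1 cluster (0 each), with 0 to 2 without 1 replicate, and the negative bins gave 0 to 2. Over the other classes and bins, 136 calls became 60 to 145 without 1 replicate, lowest without ATV-TfR replicate 1 (60) and 2 (68). None of the 43 named gene results changed sign in the settings that refitted it, but DESeq2, the stricter filter and 1 cluster were run for only a few of them. The cause was not tested. The shares of all genes called in the other settings are not given, so these counts are not read as results about Rab genes.

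With the pool as a replicate block, 8 members were called in endothelial-like cells of ATV-TfR and 1 in ATV-CD98hc, 1 in the medium bin of astrocyte-like cells of ATV-TfR, and 1 in border macrophage-like cells. The block lost the call of 0 of the 43 named gene results. Between treatments the pools share only a number, so the block there pairs nothing. Control IgG gave no value for the high against negative bin in endothelial-like cells, since its high libraries held 10 and 14 of them. Few endothelial-like cells in the negative bins limit the depth there.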

Other observations

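Of the 12 members under 10 CPM in every class, 6 passed that level in 1 class of 1 treatment and bin. Rab15 had 14.6 CPM (16 UMIs) in fibroblast-like cells of the high bin of control IgG, and Rab19, a Golgi GTPase, had 13.9 (53 UMIs) in those of its low bin. Rab37, which acts in regulated secretion, had 13.7 (52 UMIs) in oligodendrocyte-like cells of the low bin of ATV-TfR. Rab38, a relative of Rab32 in melanosome formation, had 15.4 (16 UMIs) in choroid plexus epithelial-like cells of the high bin of control IgG. Rab26 and Rab42 passed it with 3 and 2 UMIs.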
